A study of Homo sapiens with 12 samples.

Results

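The genes described here encode the extracellular matrix, the protein scaffold outside cells, and the enzymes that build and cut it. They are 48 genes chosen by name: the basement membrane, interstitial and anchoring collagens, matrix glycoproteins, proteoglycans, cross-linking enzymes, metalloproteinases and metalloproteinase inhibitors. A probe set was used where the array's annotation gave it exactly 1 gene symbol and that symbol was one of the 48, and each gene was read from its brightest such probe set over all 12 arrays, with the others beside it. All 48 were measured, by 117 of the 22215 probe sets tested, out of 11963 genes named on the array in this way. The mean of 24 of the 48 lay above the median level of all probe sets, 4.76 on the log2 intensity scale used throughout; the other 24 are called dim below.

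RNA was measured on Affymetrix arrays. The cells were the S1 cells of the HMT-3522 line (passage 55 to 60), derived from human breast epithelium that was not neoplastic, which form acini, rounded gland-like structures, when grown in a laminin-rich gel. The AGA group (4 arrays) received 10 µM 18-alpha-glycyrrhetinic acid, a blocker of gap junction communication, and the Aza group (4 arrays) 10 µM 5-aza-2'-deoxycytidine, which inhibits DNA methyltransferases. Both were given for 10 days from plating with medium changed every 2 days, and both groups are labelled as not polarized. The vehicle group (4 arrays) is labelled as apically polarized. All 3 groups grew with 5% Matrigel, 8 days with EGF (epidermal growth factor) and then 48 hours without it, so every culture was in contact with laminin, collagen IV and nidogen protein supplied by the gel, which the arrays do not read. The comparisons ask whether either loss of apical polarity goes with a change in the cells' own matrix genes. Replicates are numbered 1 to 4 in each group and the series design calls them biological without saying how separate the cultures were, so p-values measure the spread between these samples, which may be technical. In RNA from whole cultures, fewer cells of a type and less RNA per cell cannot be told apart.

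An epithelium rests on a basement membrane of 2 networks, collagen IV and laminin, which the nidogens and the proteoglycan perlecan (HSPG2) join. Mammary epithelial cells take their apical-basal axis from contact with laminin through integrins. Fibrillar collagens, fibronectin and small proteoglycans such as decorin are better known as products of fibroblasts; lysyl oxidases cross-link collagen, matrix metalloproteinases (MMPs) cut it, and tissue inhibitors of metalloproteinases (TIMPs) restrain them.

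The label was checked against marker genes. The basal keratins KRT5 and KRT14 averaged between 11.9 and 12.8 over the groups and replicate classes, and of the luminal list 3 of 8 genes lay above the median level (KRT8, KRT18 and CDH1). The luminal keratin KRT19 lay at the floor of 0 on all 12 arrays and EPCAM at the floor on 4. Of the mesenchymal list, which holds none of the 48 (its DPT, dermatopontin, is itself a matrix gene), 8 of 15 genes lay above the median level, among them VIM, SNAI2 and TWIST1, and PDGFRA, FAP and PDGFRB were dim. Of the endothelial list 1 of 7 (KDR), of the adipocyte list 1 of 4 and of the leukocyte list 0 of 5 did so. Summed linear intensity of the mesenchymal list ran from 7240 to 8010 on AGA arrays, 7290 to 8480 on Aza arrays and 7760 to 8500 on vehicle arrays; that of the basal list ran from 13000 to 15400, from 8890 to 14000 and from 9170 to 14200 in the same order of groups. The deposited values had medians between 23.3 and 35.9 per array, and precision is limited by how many arrays there are. The replicate 4 arrays of all 3 groups stood apart from the other 9 on the first principal component over all probe sets (69.3 to 84.5 against -41.9 to -12.2, with 16.4% of the variance). Treatment calls that were lost without these arrays are therefore named below.

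Few matrix genes were called between treatments, and in the limma fits run none passed without both pairing the arrays and letting the variance follow intensity. In the limma fit over all 12 arrays, 0 of 48 members passed an adjusted p of 0.05 in AGA against vehicle, where 0.009% of all probe sets passed, and 0 of 48 in Aza against vehicle, where 0.009% passed. Likewise 0 of 48 passed in Aza against AGA (0.0135% of all probe sets) and 0 of 48 in both treatments against vehicle (0.0045%). At an unadjusted p under 0.05, limma counted 1 member in AGA against vehicle, beside 4.72% of all probe sets, 4 in Aza against vehicle, beside 3.28%, 4 in Aza against AGA, beside 4.74%, and 1 in both against vehicle, beside 3.46%. The members' median difference was -0.10 in AGA and -0.004 in Aza, beside 0 and -0.001 over all probe sets. Arrays with the same replicate number resembled each other across groups, and with the number as a replicate block the counts stayed at 0, beside 0.009%, 0%, 0.009% and 0% of all probe sets. With the block and a robust prior variance that follows intensity, limma called 1 member in AGA against vehicle (THBS1, lower; 0.702% of all probe sets), 0 in Aza against vehicle (0.0045%), 3 in Aza against AGA (NID1, DCN and TIMP3, all higher in Aza; 0.851%) and 0 in both against vehicle (0%). It called the same 4 without the robust step (0.315% of all probe sets in AGA against vehicle and 0.626% in Aza against AGA), and 0 members with the robust step and block but no trend, or with the trend but no block. The fit with block, trend and robust step is called the paired fit with intensity trend below. Of the marker lists this fit called 1 gene, the endothelial KDR, in Aza against AGA. KDR was higher in Aza by 0.75 ± 0.135 (SE; adjusted p = 0.0130, limma).

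**Figure D1:**
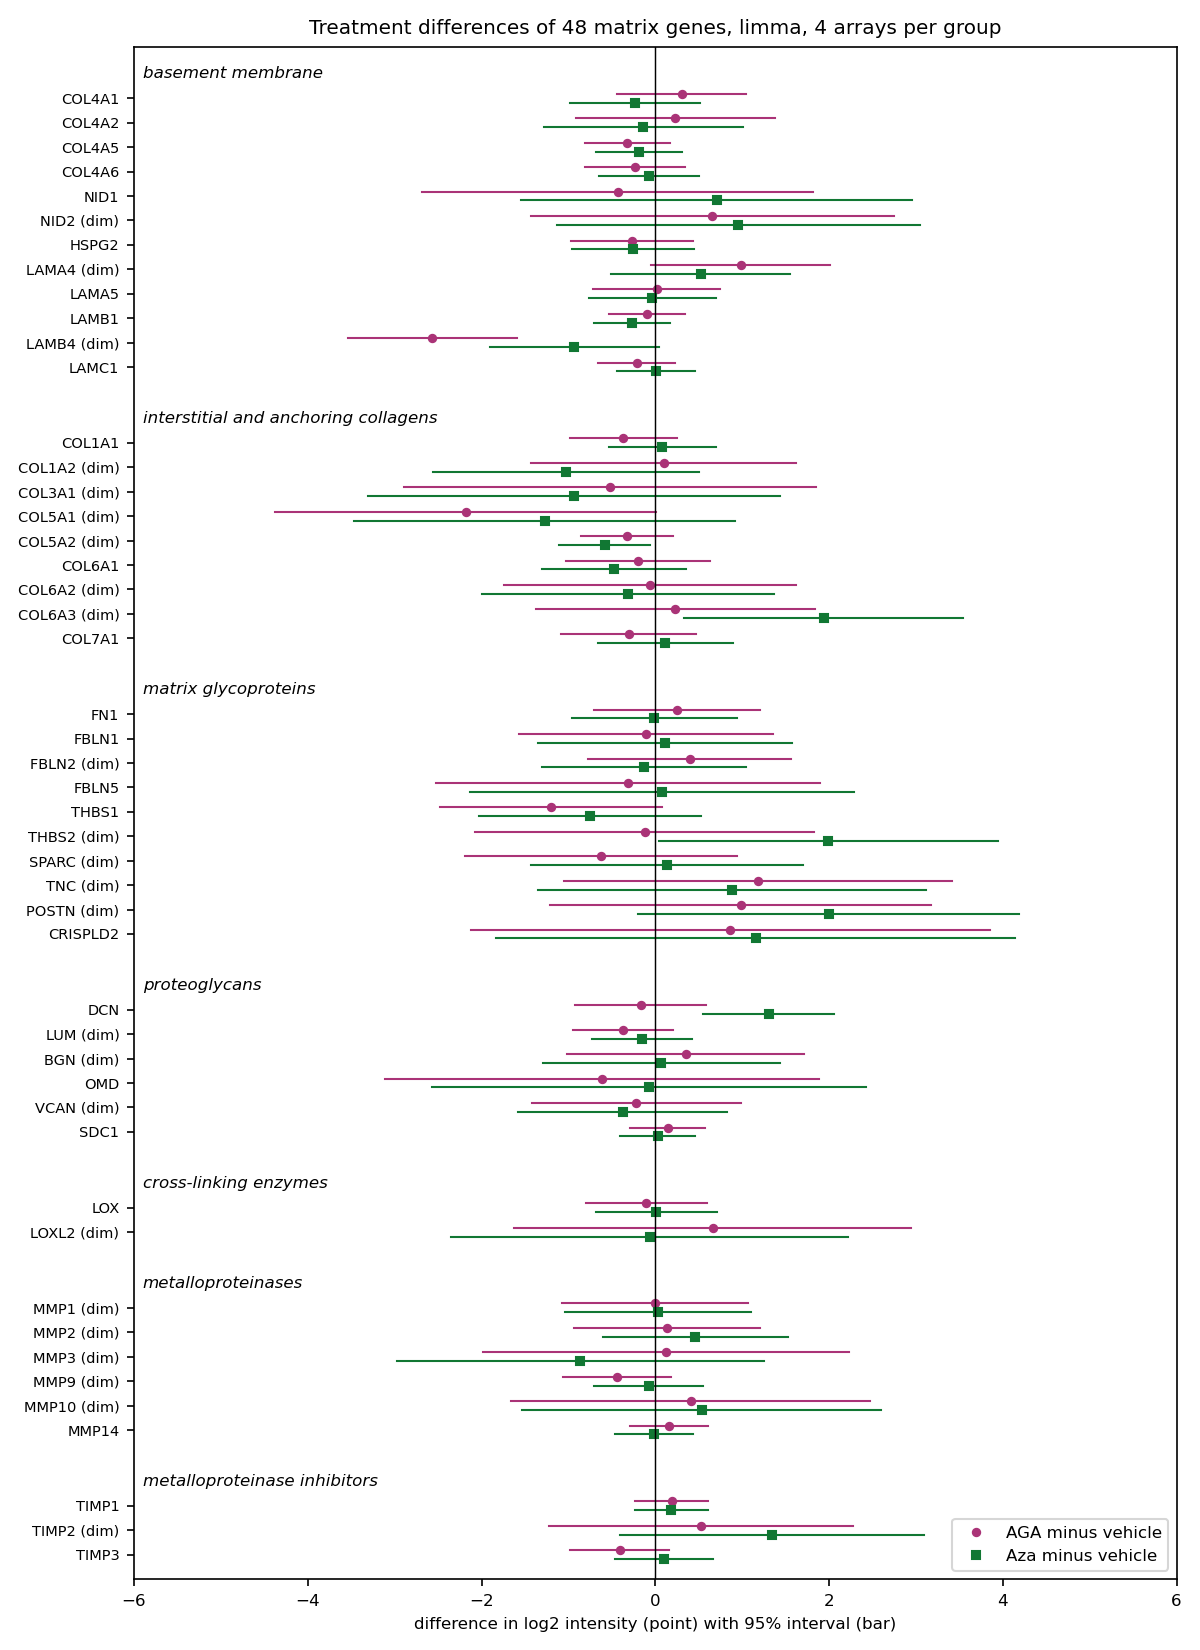
Difference from vehicle in log2 intensity (x axis) of each of the 48 genes (y axis, by role) for AGA (circles) and Aza (squares), with 95% intervals from the limma fit over 12 arrays without a replicate block. Most intervals cross 0; LAMB4 in AGA and DCN, COL6A3, THBS2 and COL5A2 in Aza do not, and none of these passed the adjusted threshold.

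Of the 7 classes the basement membrane genes had the most members above the median level, 9 of 12, and none passed against vehicle in limma with or without the block and trend. Their median difference was -0.16 in AGA and -0.11 in Aza. LAMB1, the laminin beta 1 chain, was at 11.93, 11.98, 11.995 and 12.36 on AGA arrays 1 to 4, 11.58, 11.98, 11.79 and 12.21 on Aza arrays and 11.87, 12.16, 12.08 and 12.55 on vehicle arrays. The groups overlapped, and LAMB1 was lower in 3 of 4 AGA pairs (-0.10 ± 0.20) and in 4 of 4 Aza pairs (-0.27 ± 0.20, SE; adjusted p = 1 in limma for both). Here and below, an SE with no fit named is from the limma fit without the block. It includes the spread between replicate numbers. LAMC1, the laminin gamma 1 chain that pairs with it, gave 9.77, 9.46, 9.19 and 9.60 on AGA arrays 1 to 4, 9.64, 9.60, 9.47 and 10.19 on Aza arrays and 9.63, 9.85, 9.47 and 9.92 on vehicle arrays. These groups overlapped too, with differences of -0.22 ± 0.20 in AGA and 0.005 ± 0.20 in Aza (SE).

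COL4A1 and COL4A2, the chains of the most common collagen IV trimer, are neighbours read in opposite directions from 1 promoter region. In RefSeq's windows on GRCh38.p14 (250 bases before to 50 after each start site), the pair share 226 of 300 bases, and 126 bases lie between the starts. COL4A5 and COL4A6 form a second such pair on chromosome X, with 379 bases between the nearer starts and 121 shared bases. Because Aza blocks methylation of cytosines in CG, the CG letters were counted: 45 in each of the COL4A1 and COL4A2 windows, 8 in COL4A5 and 36 in NID1, against a median of 14 over all 35116 windows and of 26 over the 34 members with a window. TIMP3, called between the compounds like NID1 as given below, had 31, and DCN, also called there, had no window. Methylation was not measured here, and a link between CG number and the calls was not tested. The 3 stretches below are shown because each collagen IV pair shares a promoter region and because NID1 was called between the compounds, as given next; each reads 5′ to 3′ towards its gene, ends at the base before the start site, and has its CG in capitals. They lie at chr13:110307158-110307283 (minus strand, the 126 bases between the COL4A1 and COL4A2 starts), chrX:108439588-108439837 (plus strand) and chr1:236065091-236065340 (minus strand).
COL4A1: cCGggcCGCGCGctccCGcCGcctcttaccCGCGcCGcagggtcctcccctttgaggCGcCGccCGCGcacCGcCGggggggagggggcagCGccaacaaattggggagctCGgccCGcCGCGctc
COL4A5: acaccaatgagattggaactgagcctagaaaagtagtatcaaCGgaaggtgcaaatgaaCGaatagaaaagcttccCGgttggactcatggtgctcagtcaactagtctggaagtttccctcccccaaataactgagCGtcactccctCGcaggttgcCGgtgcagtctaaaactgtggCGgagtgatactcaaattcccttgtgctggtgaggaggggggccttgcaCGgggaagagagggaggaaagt
NID1: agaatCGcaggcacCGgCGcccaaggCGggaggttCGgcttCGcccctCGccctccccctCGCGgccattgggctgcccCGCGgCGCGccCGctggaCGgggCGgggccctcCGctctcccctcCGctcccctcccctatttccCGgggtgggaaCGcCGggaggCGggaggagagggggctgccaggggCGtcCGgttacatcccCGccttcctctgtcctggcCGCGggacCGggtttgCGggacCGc
The stretch between COL4A1 and COL4A2 holds 20 CG, that before COL4A5 8 in 250 bases and that before NID1 30 in 250 bases.

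COL4A1 was at 6.96, 7.55, 7.10 and 6.57 on AGA arrays 1 to 4, 6.29, 7.24, 6.70 and 5.80 on Aza arrays and 6.77, 7.16, 6.89 and 6.14 on vehicle arrays. It was higher on all 4 AGA arrays than on the vehicle array of the same number (0.30 ± 0.34, SE without the block) and lower in 3 of 4 Aza pairs (-0.23 ± 0.34), and the groups overlapped. In the paired fit with intensity trend the SE of COL4A1 in AGA was 0.13, without a call (limma, adjusted p = 0.356). COL4A2 followed it with 7.42, 8.05, 7.80 and 6.37 on AGA arrays 1 to 4, 6.97, 7.79, 7.52 and 5.88 on Aza arrays and 7.16, 7.91, 7.51 and 6.14 on vehicle arrays. Both genes were highest at replicate 2 and lowest at replicate 4 in every group. The X-linked COL4A5, a chain of a second collagen IV network, gave 9.79, 10.37, 9.59 and 10.09 on AGA arrays 1 to 4, 9.79, 10.50, 10.03 and 10.06 on Aza arrays and 9.98, 10.54, 10.24 and 10.37 on vehicle arrays. It was lower than its vehicle partner in 4 of 4 AGA pairs (-0.32 ± 0.22) and 4 of 4 Aza pairs (-0.19 ± 0.22, SE without the block). No adjusted p was under 0.05 in limma with or without the block (0.0915 at the lowest, in AGA in the paired fit with intensity trend). Its partner COL4A6 averaged 9.34 ± 0.25 in AGA, 9.51 ± 0.45 in Aza and 9.58 ± 0.36 in vehicle (SD, n = 4 each).

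NID1, nidogen 1, which bridges laminin and collagen IV, was called between the compounds. Its levels were 7.11, 6.59, 5.37 and 9.49 on AGA arrays 1 to 4, 8.14, 7.34, 7.50 and 10.13 on Aza arrays and 7.27, 6.96, 6.13 and 9.93 on vehicle arrays. In every pair the AGA array was below and the Aza array above the vehicle array of its number, by 0.16 to 0.76 in AGA and by 0.20 to 1.37 in Aza, although the spread between replicate numbers was wider than either difference and the groups overlapped. Aza exceeded AGA by 1.14 ± 0.19 (SE) in the paired fit with intensity trend (limma, adjusted p = 0.00749), against 1 without the block and 0.287 with the block alone. A second NID1 probe set gave 1.07 ± 0.24 (adjusted p = 0.0466 in the same limma fit). NID1 stayed called there without all replicate 4 arrays and without each single array, while neither compound passed against vehicle (adjusted p = 0.364 in AGA and 0.516 in Aza). The other nidogen, NID2, was dim, at the floor on 6 of 12 arrays.

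**Figure D2:**
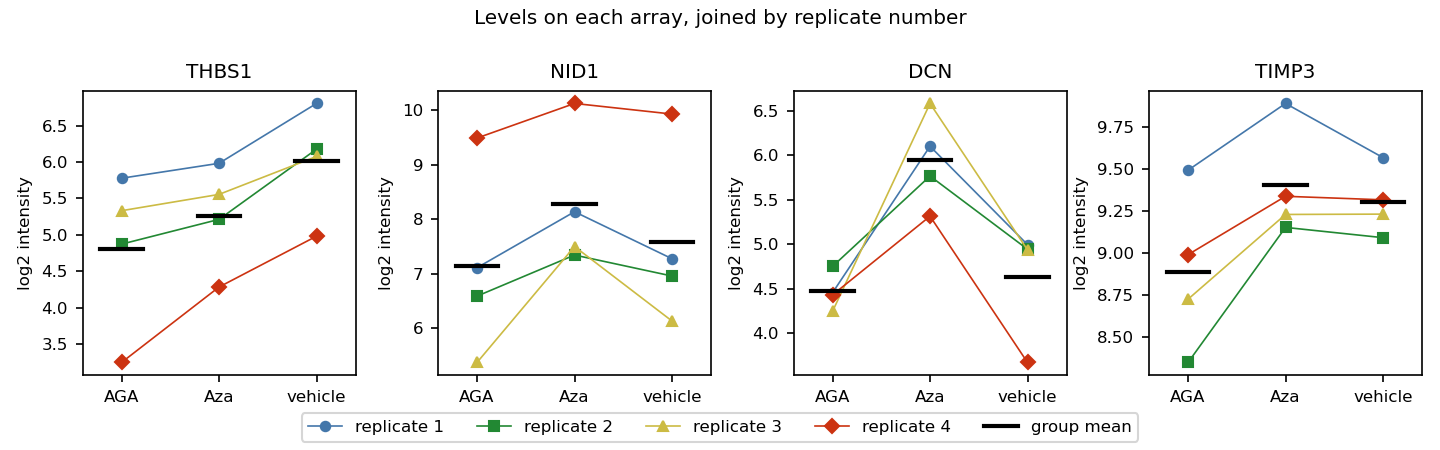
Log2 intensity (y axis) of THBS1, NID1, DCN and TIMP3 on each array of the AGA, Aza and vehicle groups (x axis), with lines joining arrays of the same replicate number and black bars at group means. THBS1 falls below its vehicle partner on all 4 AGA arrays, NID1 and TIMP3 are higher on each Aza array than on the AGA array of its number, and the 4 DCN values in Aza lie above all 8 other values.

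Of the remaining basement membrane genes, perlecan (HSPG2) and the laminin alpha 5 chain (LAMA5) averaged 4.85 ± 0.21 and 6.87 ± 0.13 in AGA, 4.86 ± 0.70 and 6.82 ± 0.28 in Aza, and 5.12 ± 0.31 and 6.86 ± 0.77 in vehicle (SD, n = 4 each), without a call. LAMA4, a laminin alpha chain, was dim (1.83 to 4.47), with AGA arrays above their vehicle partners in 4 of 4 pairs (0.98 ± 0.47, SE; adjusted p = 1). LAMB4, a laminin chain named after its values were seen, was dim but was the only member whose AGA arrays all lay below the vehicle arrays, which 1.29% of all probe sets did; no member's AGA arrays all lay above, beside 1.23%. It read 0.53, 0, 1.72 and 0 on AGA arrays 1 to 4, 2.72, 2.58, 1.45 and 2.02 on Aza arrays and 2.45, 3.33, 3.76 and 2.98 on vehicle arrays. The difference was -2.57 ± 0.44 (SE; adjusted p = 0.313 in limma, and 0.115 in the paired fit with intensity trend), and a second, also dim LAMB4 probe set went the other way (1.08).

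Among the 10 matrix glycoproteins, 5 were above the median level and THBS1 was the member called under AGA. THBS1, thrombospondin 1, a matricellular protein that activates latent TGF-beta and restrains blood vessel growth, was at 5.78, 4.87, 5.33 and 3.25 on AGA arrays 1 to 4, 5.98, 5.21, 5.55 and 4.28 on Aza arrays and 6.80, 6.18, 6.08 and 4.98 on vehicle arrays. Every AGA and every Aza array lay below the vehicle array of its number, and replicate 4 was the lowest in each group. In AGA it fell by 1.20 ± 0.21 (SE) in the paired fit with intensity trend (limma, adjusted p = 0.0158); without the block the adjusted p was 1 and with the block alone 0.394. The call was lost on leaving out any 1 vehicle array (adjusted p = 0.0542 without vehicle 1, 0.0670 without vehicle 2, 0.0507 without vehicle 3 and 0.0778 without vehicle 4) and without all replicate 4 arrays (0.0575), with differences between -1.31 and -1.02 in those fits. In Aza the difference was -0.75 ± 0.21 (SE) in the paired fit with intensity trend (limma, adjusted p = 0.548), and Aza against AGA was not called either (0.443). The other THBS1 probe sets gave -1.49, -0.59, -1.14 and 0.26 in AGA, and none of them passed.

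FN1, fibronectin, the adhesive glycoprotein bound by integrins, was at 8.60, 9.16, 9.47 and 7.62 on AGA arrays 1 to 4, 8.12, 9.07, 8.85 and 7.77 on Aza arrays and 8.42, 9.08, 8.40 and 7.96 on vehicle arrays. The groups overlapped, with 0.25 ± 0.43 in AGA and -0.013 ± 0.43 in Aza (SE). A pair of other FN1 probe sets were higher in 4 of 4 AGA pairs and passed in the paired fit with intensity trend (0.62, adjusted p = 0.0412, and 0.54, adjusted p = 0.0431, limma), while the brightest did not (adjusted p = 0.590), so the FN1 probe sets disagree on the call. Among the dim members THBS2, an antiangiogenic relative of THBS1, had Aza arrays that all lay above the vehicle arrays (3.17 to 4.04 against 0 to 3.01); DCN was the other member with this pattern, which 0.846% of all probe sets showed, and 0 members had all Aza arrays below, beside 0.873%. The THBS2 difference in Aza was 1.99 ± 0.88 (SE; adjusted p = 1 in limma). POSTN, periostin, ranged from 2.36 to 7.18 on Aza arrays, from 2.43 to 4.81 on AGA arrays and from 1.92 to 4.01 on vehicle arrays, and its highest values, 6.10 and 7.18, were Aza replicates 2 and 3. TNC and SPARC, matricellular proteins of remodelling tissue, were dim and each at the floor on 4 arrays, and the fibulin FBLN2 was dim (0 to 2.72).

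DCN was the proteoglycan called between Aza and AGA, in the paired fit with intensity trend only. Its means in AGA and vehicle, 4.47 and 4.64, lay below the median level of all probe sets. Decorin binds collagen fibrils and TGF-beta. Its levels were 4.45, 4.75, 4.24 and 4.43 on AGA arrays 1 to 4, 6.10, 5.77, 6.58 and 5.31 on Aza arrays and 4.99, 4.94, 4.94 and 3.67 on vehicle arrays. All 4 Aza arrays lay above the 4 AGA arrays and above the 4 vehicle arrays. Against AGA the difference was 1.47 ± 0.28 (SE) in the paired fit with intensity trend (limma, adjusted p = 0.0162), and DCN was the 1 member with non-overlapping arrays in that comparison (higher in 1.22% of all probe sets, lower in 1.35%). Without the block its adjusted p was 0.628, and with the block alone 0.233. The call was lost without AGA 3 (adjusted p = 0.0927), Aza 1 (0.0685), Aza 3 (0.136) or Aza 4 (0.0522). Against vehicle the Aza difference of 1.31 was not called in limma. Its SE was 0.34 without the block (adjusted p = 1) and 0.28 in the paired fit with intensity trend (adjusted p = 0.287). The other 3 DCN probe sets differed by 1.59, 1.55 and 0.16 between Aza and AGA, and none of them passed.

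OMD, osteomodulin (osteoadherin), a keratan sulfate proteoglycan of mineralizing tissue, had 7.46, 7.74, 7.38 and 3.61 on AGA arrays 1 to 4, 8.09, 7.96, 7.76 and 4.53 on Aza arrays and 8.44, 7.71, 7.52 and 4.97 on vehicle arrays. Its treatment differences, -0.62 ± 1.13 in AGA and -0.077 ± 1.13 in Aza (SE without the block), were smaller than the gap between replicate 4 and the others. That gap enters this SE. In the paired fit with intensity trend the SE in AGA was 0.18, without a call (limma, adjusted p = 0.144). The syndecan SDC1, a cell-surface heparan sulfate proteoglycan of epithelia, averaged 9.77 ± 0.16 in AGA, 9.65 ± 0.26 in Aza and 9.63 ± 0.30 in vehicle (SD, n = 4 each). The remaining 3 proteoglycans were dim: lumican (LUM) at the floor on 9 of 12 arrays, and biglycan (BGN) and versican (VCAN) between 1.93 and 4.72.

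The 9 interstitial and anchoring collagens were mostly dim, with 3 above the median level, and none was called by either compound in limma with or without the block and trend. Their medians were -0.31 in AGA and -0.47 in Aza. COL1A1, a chain of collagen I, the main fibrillar collagen, was at 6.65, 7.05, 6.48 and 7.34 on AGA arrays 1 to 4, 6.996, 7.71, 7.05 and 7.57 on Aza arrays and 6.99, 7.73, 6.79 and 7.48 on vehicle arrays. It was lower in 4 of 4 AGA pairs (-0.37 ± 0.28) and higher in 3 of 4 Aza pairs (0.082 ± 0.28, SE without the block). Aza against AGA gave 0.45 ± 0.12 (SE; adjusted p = 0.0952) in the paired fit with intensity trend, limma. Its partner in that collagen, COL1A2, was dim, from 0.46 to 4.54. COL7A1, which forms the anchoring fibrils that tie an epithelial basement membrane to the stroma, averaged 8.68 ± 0.39 in AGA, 9.11 ± 0.60 in Aza and 8.99 ± 0.54 in vehicle, and COL6A1 6.08 ± 0.66, 5.80 ± 0.65 and 6.28 ± 0.23 in the same order of groups (SD, n = 4 each). The dim COL3A1, COL5A2 and COL6A2 ranged from 0 to 3.84, from 3.20 to 4.62 and from 1.16 to 4.47. The largest differences of the class belonged to dim probe sets, COL5A1 in AGA (-2.18 ± 0.99) and COL6A3 in Aza (1.94 ± 0.73), both with an adjusted p of 1.

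The cross-linking enzyme LOX was well expressed, at 9.83 ± 0.44 in AGA, 9.95 ± 0.37 in Aza and 9.94 ± 0.54 in vehicle (SD, n = 4 each), and its relative LOXL2 was dim. Of the 6 metalloproteinases only MMP14 lay above the median level. MMP14, the membrane-bound enzyme that cuts collagen and activates pro-MMP2, averaged 7.16 ± 0.082 in AGA, 6.99 ± 0.28 in Aza and 7.002 ± 0.35 in vehicle. Its substrate MMP2 was dim (2.59 to 4.83), as was the gelatinase MMP9 (3.20 to 4.70).

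MMP1, interstitial collagenase, read 0, 0, 0 and 1.39 on AGA arrays 1 to 4, 0, 1.55, 0 and 0 on Aza arrays and 0, 1.43, 0 and 0 on vehicle arrays; it lay at the floor on 9 of 12. MMP3, stromelysin 1, was at 3.68, 0.48, 3.12 and 3.74 on AGA arrays 1 to 4, 2.46, 3.77, 0 and 0.84 on Aza arrays and 3.67, 1.07, 2.69 and 3.09 on vehicle arrays. MMP10, stromelysin 2, had 3.22, 0, 1.64 and 0 on AGA arrays 1 to 4, 2.67, 0.066, 0 and 2.63 on Aza arrays and 0.63, 0, 0 and 2.61 on vehicle arrays. The groups overlapped for all 3, and a treatment difference was not detectable at this signal. The AP-1 letters TGANTCA (the same on both strands) occurred in 7.71% of all promoter windows and, of the 34 members with a window, in 2: MMP10, at position -67 from the start site, and POSTN, at -220. The windows of MMP1 and MMP3 were not analysed here.

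The inhibitor TIMP1 was at 8.80, 9.25, 9.37 and 9.14 on AGA arrays 1 to 4, 8.82, 9.32, 9.30 and 9.10 on Aza arrays and 8.67, 9.03, 9.23 and 8.87 on vehicle arrays. Each compound's arrays lay above their vehicle partners in 4 of 4 pairs, by 0.19 ± 0.19 in AGA and 0.19 ± 0.19 in Aza (SE without the block). Neither difference was called in the paired fit with intensity trend (limma, adjusted p = 0.322 and 0.727). TIMP3, the inhibitor that binds to matrix, was called between the compounds. Its levels were 9.49, 8.35, 8.73 and 8.99 on AGA arrays 1 to 4, 9.89, 9.15, 9.23 and 9.34 on Aza arrays and 9.57, 9.09, 9.23 and 9.32 on vehicle arrays. Every AGA array was below both its Aza and its vehicle partner. Aza exceeded AGA by 0.51 ± 0.10 (SE; adjusted p = 0.0162 in the paired fit with intensity trend, limma), against an adjusted p of 1 without the block and 0.353 with the block alone. The call was lost without all replicate 4 arrays (0.0538) and without AGA 2 (0.0600), AGA 3 (0.0809), Aza 1 (0.0780), Aza 2 (0.0828) or Aza 3 (0.0691). AGA against vehicle gave -0.41 ± 0.10 (SE; adjusted p = 0.0612) in the paired fit with intensity trend, limma. Other TIMP3 probe sets differed by 0.29, 0.27 and 0.62 between Aza and AGA without passing. TIMP2 was dim, at 1.27, 0.19, 3.67 and 0.10 on AGA arrays 1 to 4, 2.81, 1.11, 2.89 and 1.69 on Aza arrays and 2.06, 0.92, 0 and 0.15 on vehicle arrays. Its groups overlapped, though each Aza array lay above its vehicle partner (1.34 ± 0.79, SE; adjusted p = 1).

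More matrix genes passed for replicate number than for either compound. In a limma F test on 3 degrees of freedom with group as a term, 12 of 48 members passed an adjusted p of 0.05, and 9.62% of all probe sets did. All 12 were among the 24 members above the median level, where 16.4% of all probe sets passed; 0 of the 24 dim members did. They were the basement membrane genes COL4A1, COL4A2, COL4A6 and NID1, the glycoproteins FN1, FBLN1, FBLN5, THBS1 and CRISPLD2, the proteoglycan OMD and the collagens COL1A1 and COL7A1. None of the metalloproteinases, inhibitors or cross-linking enzymes passed by its brightest probe set, though TIMP1 and TIMP3 were close (adjusted p = 0.0517 and 0.0532). The other TIMP3 probe sets did pass this F test (adjusted p = 0.00908, 0.0119 and 0.0436), as did a less bright probe set of MMP14 (0.0424). The test takes the 4 numbers together; the gap between replicate 4 and the others is given as a description, since it was singled out with results of these data known.

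CRISPLD2, a secreted protein of the CAP family, showed the largest gap (adjusted p = 0.00352 in the F test). Its replicate 4 arrays read 8.12, 7.98 and 7.68 in AGA, Aza and vehicle, against 3.99, 4.10 and 3.99 at AGA replicates 1 to 3, 4.82, 4.03 and 4.52 at those of Aza and 2.73, 2.68 and 3.63 at those of vehicle. The groups of arrays did not overlap, and replicate 4 exceeded the mean of replicates 1 to 3 of its group by 4.10 ± 0.57 (mean and SD over the 3 groups, as for the values in brackets below). CRISPLD2 was also higher than its vehicle partner in 4 of 4 AGA pairs (0.87 ± 1.35) and 4 of 4 Aza pairs (1.15 ± 1.35, SE without the block), without a call. The pair differences ran from 0.355 to 1.415 in AGA and from 0.299 to 2.088 in Aza. NID1 was also higher at replicate 4, by 2.92 ± 0.39 (9.49, 10.13 and 9.93 against 5.37 to 8.14; adjusted p = 0.00543), and its second probe set by 2.36 ± 0.58.

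FBLN5 and FBLN1 are fibulins, calcium-binding proteins of elastic fibres and basement membranes. FBLN5 at replicate 4 read 9.88, 9.88 and 9.90 in AGA, Aza and vehicle, against 6.05, 6.93 and 7.32 at AGA replicates 1 to 3, 6.49, 7.99 and 7.40 at those of Aza and 6.25, 7.87 and 7.41 at those of vehicle (2.81 ± 0.28; adjusted p = 0.00287). Replicate 1 was the lowest number in each group, and the 3 replicate 4 arrays lay close together. FBLN1 at replicate 4 read 8.35, 9.19 and 9.02 in AGA, Aza and vehicle, against 7.55, 6.96 and 6.65 at AGA replicates 1 to 3, 7.39, 6.43 and 7.40 at those of Aza and 7.45, 6.81 and 6.68 at those of vehicle (1.82 ± 0.45; adjusted p = 0.0185), and of the other 4 FBLN1 probe sets a pair differed by 1.96 and 1.99 and a pair, whose arrays overlapped, by 0.71 and -0.83.

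In the other direction, OMD was low at replicate 4, with 3.61, 4.53 and 4.97 against 7.38 to 8.44 (-3.41 ± 0.50; adjusted p = 0.00344), and its other probe set gave -3.45. For DCN the brightest probe set did not pass the F test (-0.73; adjusted p = 0.308). Its other probe sets gave -3.72 (adjusted p = 0.00114), -1.84 (0.0449) and -0.68 (0.824) in that test. THBS1 differed by -1.58 ± 0.43 (adjusted p = 0.011), its replicate 4 arrays reading 3.25, 4.28 and 4.98 against 4.87 to 6.80. COL4A2 and COL4A1, the pair with a shared promoter region, were both lower, with differences of -1.44 ± 0.092 (adjusted p = 0.00231) and -0.79 ± 0.15 (adjusted p = 0.018). The less bright probe set of each gave -0.54 and -2.03 without passing. FN1 at replicate 4 read 7.62, 7.77 and 7.96, against 8.12 to 9.47 (-1.01 ± 0.40; adjusted p = 0.0462), and 3 further FN1 probe sets differed by -0.68, -0.95 and -0.79. The remaining FN1 probe sets differed by -0.36 and -0.088 and did not pass. COL7A1 differed by -0.78 ± 0.23 (adjusted p = 0.0314).

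**Figure D3:**
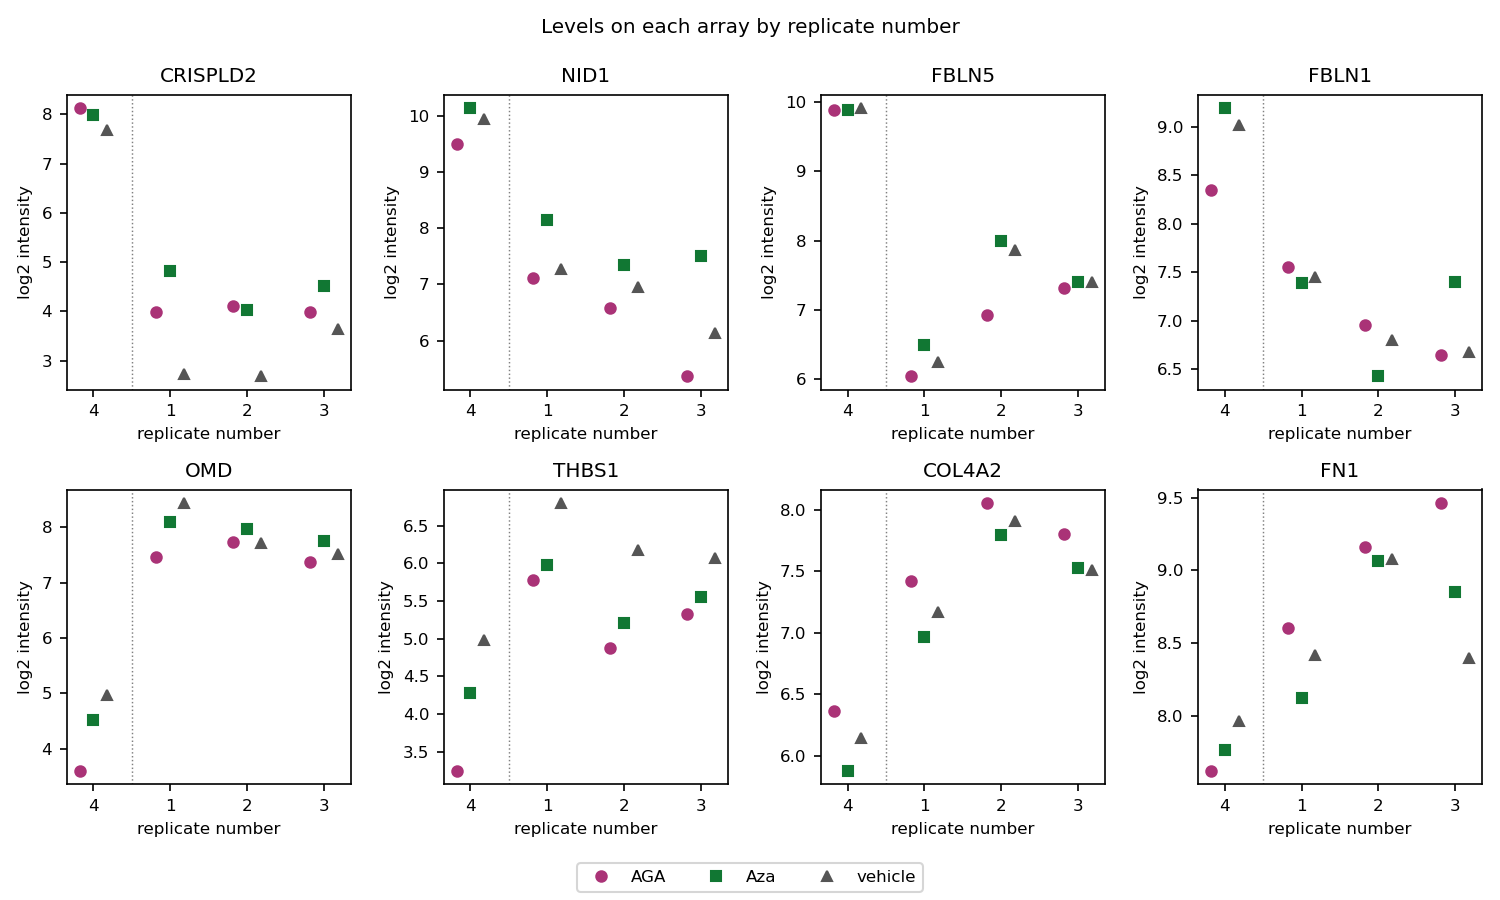
Log2 intensity (y axis) of 8 matrix genes on each array, by replicate number (x axis, number 4 left of the dotted line), for AGA (circles), Aza (squares) and vehicle (triangles). Replicate 4 of all 3 groups lies above every other array for CRISPLD2, NID1, FBLN5 and FBLN1 and below every other array for OMD, COL4A2 and FN1.

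In all, 6 members had all 3 replicate 4 arrays above the other 9 (NID1, LAMB1, FBLN1, FBLN5, LOX and CRISPLD2), as did 7.5% of all probe sets and 13% of those above the median level. For 4 members they all lay below (COL4A2, FN1, COL7A1 and OMD), as did 7.12% of all probe sets and 12.9% of those above the median level. The laminin LAMB1 and the cross-linker LOX belong to the first set with smaller gaps, 0.44 ± 0.063 and 0.72 ± 0.15, and with adjusted p values of 0.0586 and 0.0564 in the F test. COL1A1, COL4A1, COL4A6 and THBS1 passed the F test without such a split: COL1A1 averaged 7.46 at replicate 4 and 7.05 at replicates 1 to 3, and COL4A6 was highest at replicate 2 in every group. The less bright probe sets of COL1A1, COL4A1 and COL4A6 did not pass.

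**Figure D4:**
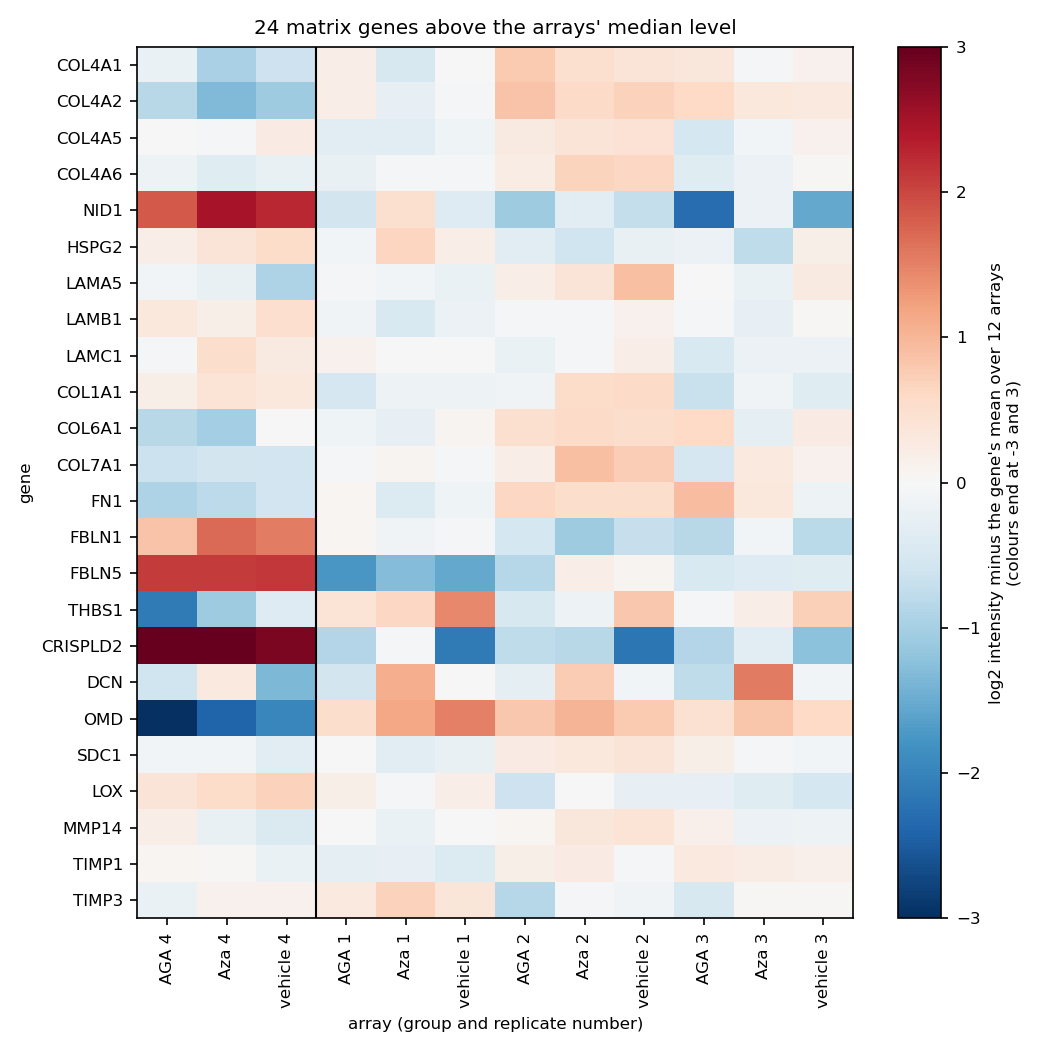
Log2 intensity minus the gene's own mean over 12 arrays (colour) for the 24 matrix genes above the median level (vertical axis, by role) on each array (horizontal axis, replicate 4 of the 3 groups left of the line). CRISPLD2, NID1, FBLN5 and FBLN1 are high and OMD, THBS1 and COL4A2 low on the replicate 4 arrays of all 3 groups.

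The count of members passing for replicate number fell when arrays were left out. It was 0 of 48 without all replicate 4 arrays. That fit also has fewer arrays and fewer numbers to compare, and the part of each in the drop was not tested. The count was 5 without vehicle 4 alone and 6 without Aza 4 alone, and lay between 5 and 10 on leaving out each single array. COL4A2, NID1, FBLN5, OMD and CRISPLD2 stayed called in 12 of 12 such fits, THBS1 in 11, COL4A1 and FBLN1 in 10, COL7A1 in 2, FN1 and COL1A1 in 1 each, and COL4A6 in 0. Markers of other cell types were read by the same F test, which 9.62% of all probe sets passed. Of them 3 of 6 basal genes, 1 of 8 luminal genes and 3 of 15 mesenchymal genes passed, and 0 of 7 endothelial, 0 of 5 leukocyte and 0 of 4 adipocyte genes. At replicate 4 the epithelial genes CDH1, ITGA6 and CDH3, the contractile gene TAGLN and the dim endothelial VWF lay below all other arrays (differences of -1.34, -1.34, -0.69, -2.72 and -1.16). ACTA2 and TWIST1 lay above (0.90 and 0.56). The keratins KRT5, KRT8 and KRT18 were higher on average at replicate 4 (0.43, 0.55 and 0.26) and KRT14 lower (-0.69), with overlapping arrays. By mean difference 4 luminal genes were higher and 3 lower, and 1 basal gene was higher and 5 lower. The summed intensity of the mesenchymal list was 7730 to 8500 at replicate 4 and 7240 to 8480 at replicates 1 to 3, that of the basal list 9540 to 15400 and 8890 to 14200, and that of the luminal list 569 to 854 and 551 to 934. The ratio of 3' to 5' probe signal was 1.14 to 1.17 at replicate 4 and 1.16 to 1.38 at replicates 1 to 3 for GAPDH, and 2.99 to 3.12 and 2.39 to 3.48 for actin. The part of these differences in the matrix result was not tested.

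Beyond the 48, 79 further matrix genes were measured: collagen processing enzymes, other proteases and the plasminogen system, elastic fibre genes, other collagens, and other matricellular proteins and proteoglycans. No gene of these lists passed in any comparison with vehicle or between compounds in limma without the block (at an unadjusted p under 0.05, between 0 and 3 per list and direction). In the paired fit with intensity trend 1 of the 79 passed, beside 0.702% of all probe sets in AGA against vehicle and 0.851% in Aza against AGA. It was P4HA2, a catalytic subunit of the prolyl 4-hydroxylase that prepares collagen for folding. P4HA2 averaged 9.21 ± 0.30 in AGA, 8.64 ± 0.39 in Aza and 8.67 ± 0.34 in vehicle (SD, n = 4 each). In that fit it was higher by 0.54 ± 0.085 (SE) in AGA against vehicle (adjusted p = 0.00837) and differed by -0.57 ± 0.085 in Aza against AGA (adjusted p = 0.00367, limma). Without the block the SE in AGA against vehicle was 0.25 and P4HA2 was not called. Its dependence on single arrays was not tested. With replicate number, 15 of the 79 passed, beside 9.62% of all probe sets and 16.4% of those above the median level: 2 of 14 collagen processing genes, 3 of 19 proteases and inhibitors, 3 of 13 elastic fibre genes, 1 of 12 other collagens and 6 of 21 matricellular proteins and proteoglycans. Among them the fibrillins FBN2 and FBN1, which scaffold elastic fibres, averaged 2.13 and 4.94 at replicate 4 and 6.13 and 7.30 at replicates 1 to 3 (adjusted p = 0.0212 and 0.0133). The proteoglycan SDC2 averaged 2.44 at replicate 4 and 5.25 at replicates 1 to 3 (0.0304), and thrombomodulin (THBD) 7.14 and 3.19 (0.0110).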

How the data were processed

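Per the labels' protocols, biotin-labelled cRNA from total RNA was hybridised to Affymetrix arrays, 4 in each of 3 groups. The authors deposited 1 table of linear intensity per probe set, made with GCOS (Affymetrix's scanner software) per the submitters' processing notes; its algorithm, scaling and build are not given in the sources used here. The intensity of 22215 probe sets, after 62 controls were left out, was log2-transformed, quantile-normalized between arrays and floored at an intensity of 1 (log2 of 0), in R 4.3.3. Of these probe sets 19064 had 1 gene symbol, 1043 several and 2108 none.

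Differences were tested over all probe sets and all 12 arrays with limma 3.58.1 (lmFit and eBayes, two-sided), and every adjusted p is limma's after Benjamini-Hochberg over all probe sets, with a threshold of 0.05. Replicate number was tested with a moderated F test beside group. The numbers come from the labels, which do not say what a number shares. They were taken to pair the arrays from the data: over probe sets above the median level, deviations from group means correlated above 0.1 in 12 of 12 same-number pairs of arrays (0.368 to 0.781), against at most 0.181 in different-number pairs; over all probe sets 6 of 12 did so (0.0587 to 0.261, against at most 0.0293). Fits with the number as a block, alone and with a robust variance trend on intensity, are therefore given beside the results they change. The scripts were tested on simulated data.

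Values on every array are given for members called in any of these fits, for the 3 members of lowest p per comparison and the 6 with the largest replicate 4 difference among those above the median level, and for 12 members chosen by role. The members, lists and comparisons were chosen with earlier results of these data known. Alternatives changed the normalization, floor, filter on dim probe sets, probe set per gene, adjustment (Holm, which the series design names beside the false discovery rate), groups fitted and arrays. Sequences are RefSeq's (GRCh38.p14); 34 of 48 members had a promoter window, 6 of them several, of which the first was used, and the others are not analysed here. Probe sets with several or no symbol were not used for members.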

Additional observations from a re-analysis of the deposited data

Results flagged for a closer look

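Of 143 sets of 4 arrays with any spread (48 genes in 3 groups, without LUM in AGA), 15 had 1 array far from the other 3 by Dixon's test at its 95% critical value. The nominal share is about 1 in 20, for independent sets. These sets share the same arrays, and replicate 4 stood apart over all probe sets. The share over all probe sets was not counted, so the 15 are not read as a trait of matrix genes. In 4 of the 15 (MMP1 in all 3 groups and LUM in Aza) the other 3 arrays were all at the floor, where any value off it passes and the nominal share does not apply. In 7 of them that array was replicate 4. OMD was low at AGA 4 (3.607) and Aza 4 (4.53), CRISPLD2 was high at AGA 4 (8.119), LAMB1 was high at AGA 4 (12.359), DCN was low at vehicle 4 (3.668), BGN was low at AGA 4 (2.166) and MMP1 was off the floor at AGA 4 (1.39). The other 8 were MMP1 at Aza 2 (1.548) and vehicle 2 (1.428), LUM at Aza 2 (0.892), MMP14 at Aza 2 (7.399), LOXL2 at AGA 1 (0.932), NID2 at vehicle 3 (1.922), COL5A1 at vehicle 1 (1.058) and COL6A2 at vehicle 1 (1.856); of these genes MMP14 alone lay above the median level.

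Aza and AGA differed, with vehicle in common, for NID1 by 1.138, for DCN by 1.473 and for TIMP3 by 0.513 (Aza minus AGA, each higher in 4 of 4 pairs), by the direct limma comparison with the replicate block and intensity trend (adjusted p = 0.00749, 0.0162 and 0.0162). None of these passed in the limma fits run without the block or without the trend.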

How the results depend on the processing

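Without pairing, 0 of 48 members were called in any treatment comparison under every alternative run. With the replicate block alone the count was also 0, and with an intensity trend and robust variance added to the replicate block it was 1 in AGA against vehicle and 3 in Aza against AGA. Taken apart after seeing the data, the trend with the block but no robust step gave the same 1 and 3, and the robust step with the block but no trend, and the trend unpaired, gave 0. The further alternatives to that paired fit were chosen after seeing the data. In AGA against vehicle they gave 2 with any probe set of a gene, 3 with no normalization between arrays, 0 without the replicate 4 arrays and 0 to 2 without single arrays; TIMP3 passed with no normalization (adjusted p = 0.0242), without vehicle 1 (0.0431) and without AGA 1 (0.0306). In Aza against AGA they gave 1 to 4 without single arrays, and in both treatments against vehicle 1 with no normalization. Of the other matrix genes the paired fit with trend called 1 in AGA against vehicle (0.702% of all probe sets) and 1 in Aza against AGA (0.851%). For replicate number, 12 members passed, against 21 with an intensity trend (23.8% of all probe sets), 7 with no normalization, 19 with a pseudocount of 16, 0 with Holm's adjustment, 0 without the replicate 4 arrays and 5 to 10 without single arrays. Where no share of all probe sets is given, a changed count is not set against the whole array. Over 543 alternatives for 26 results on single genes, 516 kept direction and side of the threshold, 15 lost the call, 12 gained it and 0 changed direction. Most of these results were not calls, so the 516 do not measure how stable the calls were. All 15 losses fell on calls of the paired fit with intensity trend. THBS1 in AGA against vehicle lost 5 and kept 11. In Aza against AGA, DCN lost 4 and kept 12, TIMP3 lost 6 and kept 10, and NID1 kept 16. The cause was not tested. Signal limits the 24 dim members, of which MMP1 and LUM lay at the floor on 9 of 12 arrays.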
